A study of Mus musculus with 3 samples.

Results

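The genes described here encode the subunits of the transcription factor NF-κB, 2 of its inhibitors and 2 members of the complex that switches it on below antigen receptors. They are Nfkb1, Nfkb2, Rel, Rela, Relb, Nfkbia, Nfkbie, Bcl10 and Malt1, taken by symbol, 9 of the 24437 genes in the deposited tables. RNA was sequenced from 3 thymic leukaemias of diseased Mb1-CreDPB mice of strain C57BL/6, 1 library each. They are called leukaemia 1 (Thy_853), leukaemia 2 (Thy_854) and leukaemia 3 (Thy_857). In this model Cre made from the B lineage gene Cd79a (mb-1) removes Spi1, which encodes PU.1, from B lineage cells of animals without Spib. All 3 libraries therefore share this genotype, and no control was analysed here. The labels give no age and do not say that each thymus came from another mouse. The values are FPKM, that is, fragments scaled to transcript length and to library size, so levels can be compared between genes. Where 3 values stand together they belong to leukaemias 1, 2 and 3 in order, and every ± is an SD over these 3 libraries.

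NF-κB acts as dimers of its subunits, which inhibitors of the IκB family hold in the cytoplasm of resting cells. In lymphocytes BCL10 and MALT1 act in the CBM complex, which forms after antigen receptor signalling and activates the IκB kinases. The kinases mark the inhibitors for destruction, and freed dimers enter the nucleus. A slower, non-canonical arm depends on NIK, the product of Map3k14, and yields dimers of RelB with the processed Nfkb2 product. Several genes of the system are themselves textbook NF-κB targets, Nfkbia foremost, and B cells use both arms for survival and maturation.

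Promoter windows are shown because several of these genes are known NF-κB targets. Whether matches in them bear on the levels in these leukaemias was not tested. The search used 8 RefSeq (GRCm38.p6) windows of 300 bases for 6 of the 9 members, Nfkb2, Rel, Rela, Nfkbia, Nfkbie and Bcl10. Each reached from 250 bases before to 50 bases after an annotated start. Nfkb1, Relb and Malt1 had no window in the search, and windows on the chromosome of Malt1 had been left out by choice. The κB consensus, the letter pattern bound by NF-κB dimers, was searched on both strands and overlapping matches were merged. It was found in windows of 5 of these 6 genes, against 9.55% of all 27025 genes with windows. By window it was found in 7 of 8, against 8.46% of all 32851 windows. Of the 8 windows, 3 belong to Nfkb2, so they are not independent. The 9 matches lay at 8 places, because 1 place lay in 2 overlapping Nfkb2 windows. A match is a description of letters and not evidence of binding. The windows below, at chr19:46304487-46304786 on the plus strand (first of 3 Nfkb2 starts), chr12:55492598-55492897 on the minus strand (Nfkbia), chr11:23770920-23771219 on the minus strand (Rel) and chr19:5637291-5637590 on the plus strand (Rela), run 5′ to 3′ with matches in capitals.
Nfkb2, start 1: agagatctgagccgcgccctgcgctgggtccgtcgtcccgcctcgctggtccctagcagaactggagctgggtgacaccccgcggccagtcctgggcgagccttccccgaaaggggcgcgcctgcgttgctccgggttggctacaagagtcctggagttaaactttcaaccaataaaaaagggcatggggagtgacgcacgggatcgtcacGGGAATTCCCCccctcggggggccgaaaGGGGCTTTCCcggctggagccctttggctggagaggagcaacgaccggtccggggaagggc
Nfkbia: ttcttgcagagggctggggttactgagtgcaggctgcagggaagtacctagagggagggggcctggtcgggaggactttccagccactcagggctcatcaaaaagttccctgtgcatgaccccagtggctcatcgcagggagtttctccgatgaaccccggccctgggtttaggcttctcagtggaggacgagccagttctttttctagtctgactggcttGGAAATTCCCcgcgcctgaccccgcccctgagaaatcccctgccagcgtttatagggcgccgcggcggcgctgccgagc
Rel: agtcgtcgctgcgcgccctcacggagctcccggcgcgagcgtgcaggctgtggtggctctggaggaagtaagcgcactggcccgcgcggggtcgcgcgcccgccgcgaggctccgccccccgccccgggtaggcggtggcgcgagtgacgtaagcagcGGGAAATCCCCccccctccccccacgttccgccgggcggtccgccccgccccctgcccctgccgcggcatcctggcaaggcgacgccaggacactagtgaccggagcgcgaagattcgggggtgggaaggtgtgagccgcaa
Rela: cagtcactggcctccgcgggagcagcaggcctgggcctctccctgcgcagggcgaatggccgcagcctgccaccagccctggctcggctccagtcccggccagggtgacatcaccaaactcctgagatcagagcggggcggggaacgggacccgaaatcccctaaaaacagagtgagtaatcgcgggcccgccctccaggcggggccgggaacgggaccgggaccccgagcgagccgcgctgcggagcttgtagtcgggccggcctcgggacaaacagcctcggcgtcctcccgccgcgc
The Nfkb2 window held 2 matches, the Nfkbia and Rel windows 1 each, and the Rela window none in these letters.

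**Figure D1:**
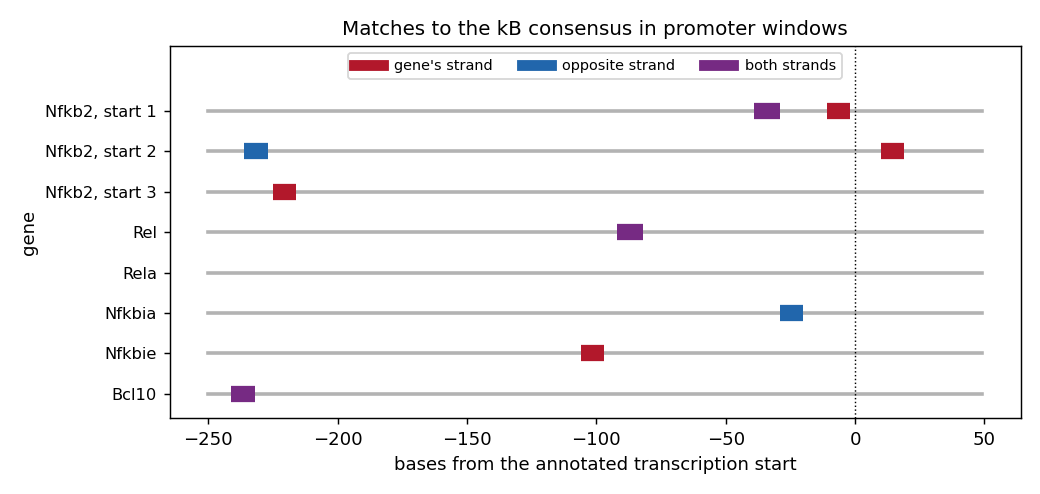
Places of κB consensus matches in the promoter windows of 6 NF-κB genes. The x axis gives bases from the annotated start, which is 0; grey lines are windows and coloured blocks are matches, by strand. Matches stood in 7 of the 8 windows, and the Rela window had none.

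All 9 genes were expressed, which here means FPKM of at least 1 in every leukaemia, as were 9300 genes of the tables. Nfkb1 and Rela were the most abundant subunits, Rel was the scarcest by far, and the inhibitor Nfkbia stood above them all. Each member is protein-coding in GENCODE M21 and had 1 locus and status OK in each table. The intervals given below are the deposited 95% intervals, which cover the counting and assignment of fragments and not differences between animals.

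Nfkb1 encodes a precursor that is cut to the DNA-binding subunit p50, and lies on chromosome 3, 135584655 to 135691547, in mm10. It stood at 53.0, 35.2 and 41.9 FPKM in leukaemias 1, 2 and 3, a mean of 43.4 ± 8.97. Leukaemia 1 was highest and leukaemia 2 lowest, and the intervals of 49.8 to 52.2, 32.9 to 34.8 and 39.3 to 41.4 FPKM did not overlap. Each FPKM of Nfkb1 lay above its own upper bound, so its value and its interval are not on 1 scale.

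Rela encodes p65, the subunit that carries the activation domain of the main canonical dimer (chromosome 19, 5637490 to 5648130). Its values of 32.8, 28.7 and 31.4 FPKM, a mean of 31.0 ± 2.12, were among the steadiest of the set. The intervals of leukaemias 1 and 3, 29.8 to 32.2 and 28.6 to 30.8, overlapped, and that of leukaemia 2, 25.9 to 28.0, lay below both. Here too the FPKM exceeded the upper bound in each leukaemia.

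Rel encodes c-Rel, an activating subunit best known from mature B and T cells (chromosome 11, 23741729 to 23770970). It stood at 1.65, 1.999 and 2.15 FPKM, a mean of 1.93 ± 0.256, and leukaemia 1 was the lowest here. All 3 intervals overlapped, at 1.37 to 1.88, 1.67 to 2.25 and 1.81 to 2.36 FPKM. Of the 10412 genes that reached 1 FPKM in any leukaemia, 11.5% had a lower mean than Rel, against 75.5% for Rela. Within each leukaemia Rela exceeded Rel, by ratios of 19.9, 14.3 and 14.6. In the GENCODE M21 annotation the Rel gene reaches 4882 bases beyond the deposited locus at its 3′ end, and whether this bears on its FPKM was not tested.

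Nfkb2 encodes the precursor of the non-canonical subunit p52 (chromosome 19, 46304737 to 46312090). Its FPKM of 23.1, 14.0 and 15.5, a mean of 17.5 ± 4.91, was highest in leukaemia 1, and the 3 intervals, 21.6 to 23.4, 12.9 to 14.3 and 14.4 to 15.9, did not overlap. In GENCODE M21 Psd overlaps Nfkb2 on the opposite strand. The tables list Psd at 0 FPKM in all 3 leukaemias, and the sources used here do not say whether counting used strand.

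Relb encodes the partner of p52 (chromosome 7, 19606222 to 19629438) and is induced by NF-κB in many cells. It stood at 9.66, 6.14 and 5.97 FPKM, a mean of 7.26 ± 2.09. Leukaemia 1 lay above the others, with an interval of 9.01 to 10.3 FPKM, while those of leukaemias 2 and 3, 5.63 to 6.65 and 5.49 to 6.45, overlapped. Both genes of the non-canonical dimer thus had their highest value in leukaemia 1. The ratio of Rela to Relb was 3.40, 4.67 and 5.27, and that of Nfkb1 to Nfkb2 was 2.29, 2.52 and 2.71.

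Nfkbia encodes IκBα, the inhibitor that is degraded fastest and made anew when NF-κB is active (chromosome 12, 55489409 to 55492647). It was the most abundant member at 73.2, 59.5 and 44.5 FPKM, a mean of 59.1 ± 14.3, and 87.1% of the 10412 genes had a lower mean. Leukaemia 1 was highest and leukaemia 3 lowest, with intervals of 71.4 to 76.2, 57.8 to 62.2 and 42.8 to 46.6 FPKM that did not overlap.

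Nfkbie encodes IκBε, a slower inhibitor prominent in B cells (chromosome 17, 45555700 to 45563168). It stood at 26.7, 18.2 and 18.4 FPKM, a mean of 21.1 ± 4.82. Leukaemia 1 was highest, with an interval of 25.5 to 27.9 FPKM, and the intervals of leukaemias 2 and 3, 17.4 to 19.2 and 17.6 to 19.3 FPKM, overlapped. Nfkbia exceeded Nfkbie by ratios of 2.75, 3.26 and 2.42. The summed FPKM of both inhibitors was 99.8, 77.8 and 62.9, and that of the 5 subunits 120.3, 86.0 and 96.9. Transcripts of Nfkbia and Nfkbie over those of the 5 subunits were thus 0.830, 0.904 and 0.649, lowest in leukaemia 3. The inhibitor gene Nfkbib, at 21.2, 25.8 and 25.3 FPKM, is not in this ratio, so it does not cover all inhibitor transcripts.

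Bcl10 encodes the adaptor that forms filaments in the CBM complex (chromosome 3, 145924262 to 145934364). Its FPKM of 26.4, 25.3 and 23.5, a mean of 25.1 ± 1.43, spread least of the 9 members, with a coefficient of variation of 5.71%. Each value lay above its upper bound, and the midpoints of its intervals averaged 23.1 FPKM. Of these intervals, 23.1 to 25.6, 21.96 to 24.4 and 20.6 to 22.8, those of leukaemias 1 and 3 did not overlap and the other pairs did. Malt1 encodes the paracaspase of the complex (chromosome 18, 65430997 to 65478792) and stood at 11.8, 9.19 and 10.4 FPKM, a mean of 10.5 ± 1.32. Leukaemia 1 was highest, and the intervals of leukaemias 2 and 3 did not overlap it or each other, at 11.1 to 12.1, 8.54 to 9.49 and 9.71 to 10.8 FPKM. Bcl10 exceeded Malt1 by ratios of 2.23, 2.75 and 2.26.

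**Figure D2:**
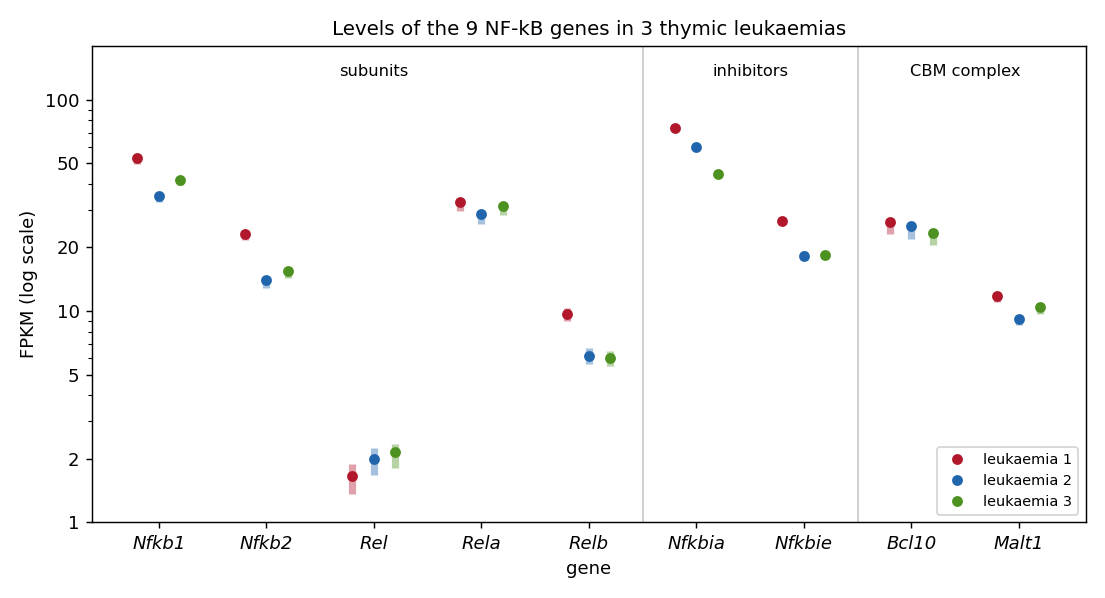
FPKM (log axis) of each NF-κB gene in leukaemias 1, 2 and 3; points are deposited FPKM and bars are deposited 95% intervals, which lie below the point where FPKM exceeds its own bound. Nfkbia was highest, at 44.5 to 73.2 FPKM, and Rel lowest, at 1.65 to 2.15.

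Ordered by mean FPKM the members ran Nfkbia, Nfkb1, Rela, Bcl10, Nfkbie, Nfkb2, Malt1, Relb and Rel. The order was the same from the midpoints of the intervals. Neighbours whose ranges over the 3 leukaemias overlapped were Nfkbia and Nfkb1, Bcl10 and Nfkbie, Nfkbie and Nfkb2, and Malt1 and Relb. Of these pairs only Bcl10 and Nfkbie changed places within a leukaemia, with Bcl10 higher in 2 of 3. In the other pairs the first gene was higher in all 3 leukaemias. Both genes of a pair come from the same libraries, so overlap of ranges does not show that they did not differ. The ranges of Nfkb1 and Rela, Rela and Bcl10, Nfkb2 and Malt1, and Relb and Rel did not overlap. No test was run on this order, because 3 libraries cannot give a two-sided exact sign-flip p below 0.25.

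The leukaemias were next compared with each other. A gene was called when it differed by at least 1 on the log2(FPKM + 1) scale, reached 1 FPKM on at least 1 side and had separate intervals. No member was called in any pair, where 8.16% of genes tested were called between leukaemias 1 and 2, 9.98% between 1 and 3 and 4.68% between 2 and 3. The differences of Nfkbia came nearest to the threshold, at 0.70 for leukaemia 1 minus 3, followed by 0.69 for Nfkb2 in leukaemia 1 minus 2. With 1 library on each side these are descriptions with no replicate check and no p-value. In bulk RNA, fewer cells of a type and less RNA per cell cannot be told apart. At a threshold of 1.5 times, 1 member, Nfkb2, was called between leukaemias 1 and 2, where 21% of genes tested were called. At that threshold 2, Relb and Nfkbia, were called between leukaemias 1 and 3, against 26.4% of genes tested.

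Smaller differences ran mostly one way. The highest FPKM was in leukaemia 1 for 8 of the 9 members, all but Rel. The share of all genes with their highest FPKM there was not computed, so this count has no background beside it. When intervals that did not overlap were counted with no minimum difference, a rule chosen after seeing the data, 7 of 9 members were higher in leukaemia 1 than in 2, against 36.4% of all genes tested. Rel and Bcl10 were the exceptions. Likewise 7 of 9 were higher in leukaemia 1 than in 3, against 35.8%, with Rel and Rela as the exceptions. Both comparisons share leukaemia 1, so they are not independent. Between leukaemias 2 and 3, 1 member (Nfkbia) was higher in leukaemia 2, against 21.3% of genes, and 4 were lower, against 35.0%. The count of 4 became 1 when FPKM was rescaled by the median ratio or by the upper quartile, so no direction is drawn from it.

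The differences of leukaemia 1 minus 2 and 1 minus 3 on the log2(FPKM + 1) scale were 0.58 and 0.33 for Nfkb1, 0.69 and 0.55 for Nfkb2, and 0.58 and 0.61 for Relb. For the inhibitors they were 0.29 and 0.70 for Nfkbia and 0.52 and 0.51 for Nfkbie. Those of Rela, 0.19 and 0.06, Bcl10, 0.06 and 0.16, and Malt1, 0.33 and 0.17, were smaller, and those of Rel, -0.18 and -0.25, were negative. The median over the 9 members was 0.33 in each comparison, beside 0.02 and -0.01 over all genes tested. Leukaemia 2 minus 3 gave a member median of -0.07, beside -0.06 over all genes. Across all 3 leukaemias the members' median coefficient of variation was 20.7%, beside 15.2% for the 9300 expressed genes.

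**Figure D3:**
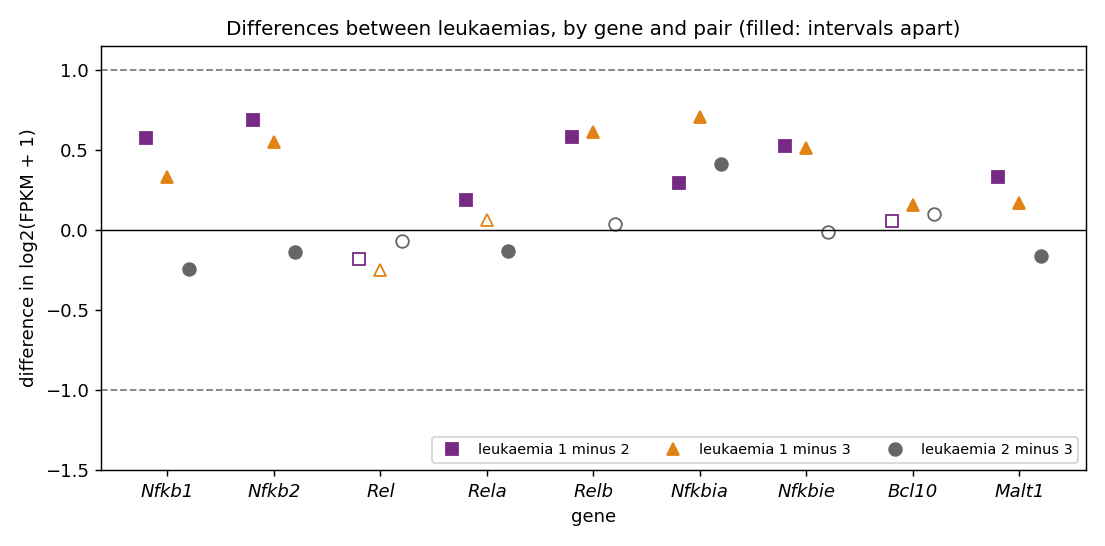
Difference in log2(FPKM + 1) of each NF-κB gene for leukaemia 1 minus 2, 1 minus 3 and 2 minus 3; filled symbols have intervals that do not overlap and dashed lines mark a difference of 1. No symbol reaches a dashed line, and all of leukaemia 1 minus 2 and 1 minus 3 are above 0 except those of Rel.

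Other genes of the pathway were read from 6 lists of 65 genes in all, of which 51 were expressed. Of the 65, 11 were called higher in leukaemia 1 than in 2, against 5.56% of all genes tested, and 0 lower, against 2.60%. Against leukaemia 3, 12 were higher in leukaemia 1, where 6.75% of genes were, and 1 was lower, where 3.22% were. Between leukaemias 2 and 3, 1 was called, against 4.68% of all genes tested. Of the 15 genes called in any pair, 11 came from the list of NF-κB target genes, and the IκB kinase and canonical upstream lists supplied none. The share of all genes called in any pair was not computed. In either direction it was 8.16% between leukaemias 1 and 2 and 9.98% between 1 and 3. At such shares lists of 5 and 15 genes can hold no call, so nothing is drawn from their lack of calls. The same shares stand beside the count of each list below.

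All 5 IκB kinase genes were expressed, and none was called. Ikbkb, the kinase subunit of the canonical arm, was the highest at 16.1, 20.9 and 17.4 FPKM, and Ikbke, a related kinase, the lowest at 5.25, 3.61 and 2.81. All 15 upstream adaptors, kinases and ubiquitin ligase genes of the canonical arm were expressed as well, with no call. Rbck1, a subunit of the linear ubiquitin ligase, stood at 68.0, 67.6 and 71.6 FPKM and Tab3, an adaptor of the TAK1 kinase, at 2.09, 1.83 and 2.23.

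Among 6 further inhibitors and atypical IκB genes, Nfkbib, which encodes IκBβ, was the highest at 21.2, 25.8 and 25.3 FPKM, and Nkiras1, an IκB-binding Ras-like protein, was listed at 0 in each table. Bcl3, an atypical IκB that works in the nucleus with p50 and p52, was the 1 gene called, at 3.65, 0.989 and 0.587 FPKM, higher in leukaemia 1 than in both others. It was named after its values were seen. In the non-canonical list 5 of 8 genes were expressed. Tnfrsf13c, the BAFF receptor, led at 17.9, 23.2 and 24.5 FPKM, and Ltbr, the lymphotoxin β receptor, was lowest at 0.946, 0.344 and 0.274. The 1 call, likewise named after its values were seen, was Traf3, which keeps NIK low in resting B cells. It stood at 0.910, 2.24 and 3.52 FPKM and was lower in leukaemia 1 than in 3 by a log2(FPKM + 1) difference of -1.24.

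All 9 negative regulators were expressed, and 2 were called. Tnfaip3, which encodes the ubiquitin-editing enzyme A20 and is itself induced by NF-κB, stood at 9.22, 3.02 and 3.68 FPKM. Leukaemia 1 exceeded leukaemia 2 by 1.35 and leukaemia 3 by 1.13 on the log2(FPKM + 1) scale. Tnip2, a partner of A20, stood at 10.1, 4.49 and 8.91 FPKM and was called between leukaemias 1 and 2 alone. Otulin, a deubiquitinase, was highest at 42.0, 38.3 and 36.8 FPKM, and Rc3h1, the RNA-binding roquin, lowest at 4.61, 3.25 and 3.67.

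Known NF-κB target genes held most of the calls. Of 22 listed, 20 were tested in each pair with leukaemia 1. There 8 were called higher in leukaemia 1 than in 2, against 5.56% of all genes tested. Likewise 10 were called higher in leukaemia 1 than in 3, against 6.75%. None was called lower in leukaemia 1, where 2.60% and 3.22% of all genes tested were. Called in both comparisons were Ltb, Ccl4, Cxcl10, Ccl3, Gadd45b and 3 Bcl2a1 genes, and against leukaemia 3 also Icam1 and Ier3. Ccr7, a homing receptor named after its values were seen, was called between leukaemias 2 and 3, at 6.03, 3.57 and 8.76 FPKM, and had separate intervals and the lower value in leukaemia 1 beside 3. Ltb, a lymphotoxin subunit, stood at 28.8, 6.75 and 8.12 FPKM, the chemokine gene Ccl4 at 14.9, 3.05 and 3.86, and the interferon-inducible chemokine gene Cxcl10 at 6.33, 2.32 and 0.902. Bcl2l1, which encodes the survival protein BCL-XL, was the highest target at 71.2, 75.0 and 61.4 FPKM and was not called, and Il6 was the lowest at 0.153, 0 and 0.0172. Among the genes called were Bcl2a1a, Bcl2a1b and Bcl2a1d, near-identical copies whose reads can be shared, so their 3 calls are uncertain as separate ones. The median difference of the targets tested was 0.78 for leukaemia 1 minus 2 and 0.91 for 1 minus 3, beside 0.02 and -0.01 over all genes. With a pseudocount of 0.1 the target count against leukaemia 2 was 14, where 8.54% of genes tested were called higher in leukaemia 1. At a threshold of 1.5 times it was 15, beside 12.7% of genes tested, and when a log2 difference of 2 was required it was 0.

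**Figure D4:**
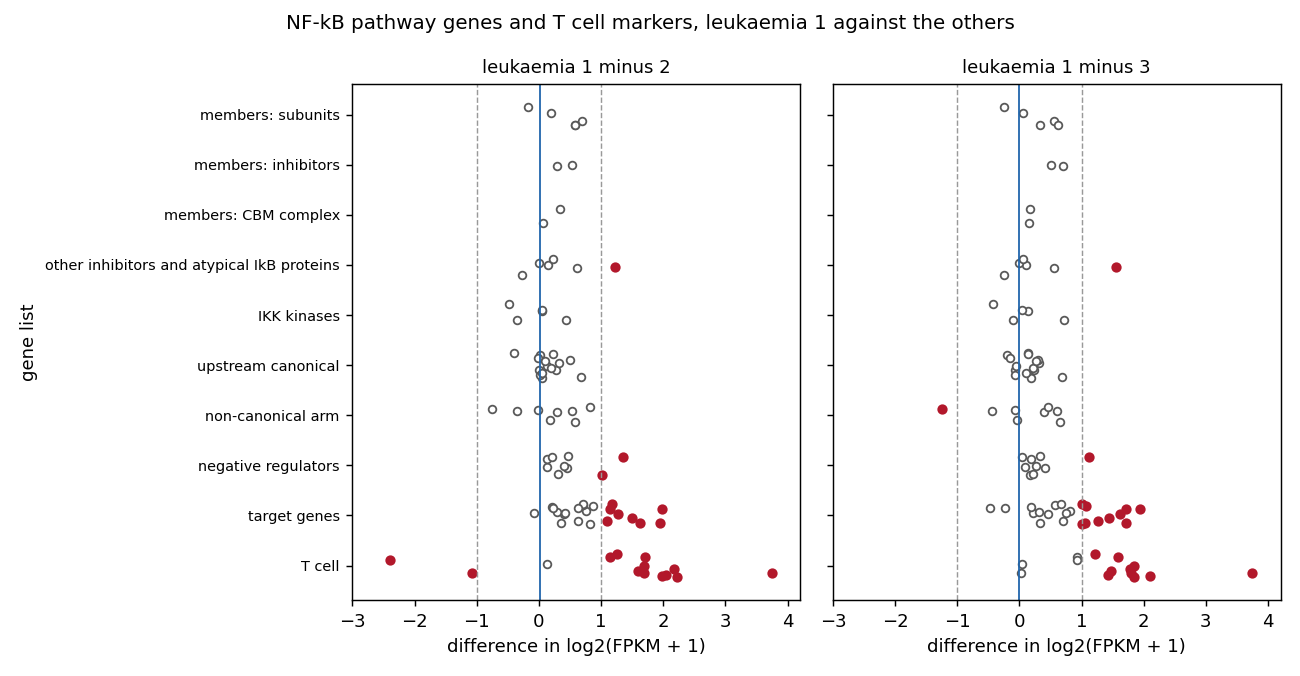
Difference in log2(FPKM + 1) of leukaemia 1 minus 2 (left) and 1 minus 3 (right) for each gene of the member, pathway and T cell marker lists; red points were called, open points were not, the blue line is the median of all genes tested and dashed lines mark a difference of 1. Target genes and T cell markers hold most of the red points, and no member is red.

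Many markers of T and NK cells were also called higher in leukaemia 1. Over all genes tested, 5.56% were called higher in leukaemia 1 than in 2 and 6.75% higher than in 3. Called lower were 2.60% and 3.22%. Of 14 T cell markers, 13 were tested in each of these pairs. Of these, 11 were called higher in leukaemia 1 than in 2 and 10 higher than in 3, and 2, Bcl11b and Lck, were called lower than in 2. Cd3e stood at 20.1, 3.51 and 4.87 FPKM, Cd247 at 12.4, 0 and 0 and Ptcra at 0.0887, 0 and 0.0538. The T cell list summed to 242, 211 and 114 FPKM, of which Lck made up 77.1, 165 and 75.6. Of 7 NK cell markers, 5 were tested in each of these pairs. Of these, 4 and 3 were called higher in leukaemia 1 than in 2 and 3, and 1, Gzma, was called lower than in each. The NK cell list summed to 93.0, 144 and 84.4 FPKM, of which Gzma made up 17.1, 125 and 62.6. Of 10 myeloid markers, 0 and 4 were called higher in leukaemia 1 than in 2 and 3, with sums of 377, 304 and 101. The part of these cells in the values of the NF-κB genes and of their targets was not tested.

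The B lineage label of the model was met by its markers, since all 9 B cell markers were expressed, with sums of 7338, 6466 and 4819 FPKM. Most of each sum came from the surrogate light chain genes Igll1, at 3139, 2490 and 1955 FPKM, and Vpreb1, at 1853, 2025 and 1221. Of the 9, Cd22 and Blnk were called higher in leukaemia 1 than in 2, none was called between 1 and 3, and Blnk, at 53.9, 14.6 and 37.9 FPKM, was called lower in 2 than in 3. Over all genes tested, 8.16% were called in either direction between leukaemias 1 and 2, 9.98% between 1 and 3 and 4.68% between 2 and 3. Thymic epithelial markers summed to 3.14, 2.69 and 2.27 FPKM and those of stroma and endothelium to 4.21, 3.73 and 2.06. Erythroid markers summed to 142.9, 209.8 and 26.2, and 4 of 5 were called higher in leukaemia 1 than in 3 and in 2 than in 3. Between leukaemias 1 and 2, 1 of them, Hba-a1, was called lower in leukaemia 1 and none higher. The deposited FPKM summed to between 416284 and 431407 per library, and the sources used here do not give the number of fragments.

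Nfkbia had the widest range of the members on the log2(FPKM + 1) scale, 0.70, and the genes closest to it over the 3 leukaemias were then ranked. By Euclidean distance on that scale among 10411 genes, the nearest were Ctsz at 66.5, 58.6 and 46.4 FPKM, Ube2j1 at 76.5, 64.0 and 40.5, and Cd47 at 67.5, 53.4 and 43.2. Their distances were 0.15, 0.18 and 0.20. With 3 libraries many genes lie close, and 125 were within a distance of 0.5.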

How the data were processed

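RNA sequencing libraries of 3 thymic leukaemias were analysed as 1 group. TopHat2 2.0.9, Cuffdiff 2.1.1, Cufflinks and Trim Galore 0.2.8.1 were run with mm10, per the submitters' processing notes. Their order and settings are not known here. The authors deposited FPKM per gene with 95% bounds and a status, per the file headers, and no counts, so no count test was used. FPKM and bounds were summed over the loci of a symbol, and 26 rows per table whose symbol had become a date were left out. Starts had 1 added. Depth is not given. The median interval at FPKM of at least 1 reached 5.50%, 5.63% and 5.34% to either side of its midpoint, and FPKM exceeded its own upper bound in 27.3%, 28.2% and 28.6% of such rows.

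Calls were computed over all genes with Python 3.11.15, numpy 2.4.6 and pandas 2.3.3, on log2(FPKM + 1). The call rule was also run on simulated data with counting error only. Those data hold no differences between animals and no FPKM above its own bound, so they cannot show how reliable calls between these leukaemias are. The members and lists were chosen with earlier results of these data known. Apart from members, each pathway list names its highest and lowest gene and up to 3 called genes with FPKM of at least 5. Alternatives were other pseudocounts, filters, thresholds and scalings, midpoints, status OK rows and each library left out. A planned pathway list is not reported here.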

Additional observations from a re-analysis of the deposited data

How the results depend on the processing

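All 9 members stayed expressed under both rescalings and with midpoints, and 8 of 9 at FPKM of at least 5. They also stayed expressed with status OK rows and without each library, but these settings could not have removed a member. Of 63 recomputed member means, 62 moved by less than 1 SD, and that of Bcl10 moved to 23.1 FPKM from midpoints. Leaving out a library or using status OK rows could not move a mean by 1 SD. Only the rescalings and midpoints could have done so. No member was called under either rescaling or with midpoints. None was called with a pseudocount of 0.1 either, but this setting could not have called one. The largest ratio of a member between leukaemias was 1.65, below a log2 difference of 1 at any pseudocount. Other filters, status OK rows, a log2 difference of 2 and no interval criterion could not have called a member either. The threshold of 1.5 times called 1 between leukaemias 1 and 2 and 2 between 1 and 3, beside 21% and 26.4% of genes tested. At that threshold 25 pathway genes were called in any pair and 15 targets were called higher in leukaemia 1 than in 2, beside 12.7% of genes tested. When a log2 difference of 2 was required the pathway count and both target counts were 0. With a pseudocount of 0.1, 14 targets were higher in leukaemia 1 than in 2. Members with intervals apart and lower in leukaemia 2 than in 3 numbered 1 under both rescalings, and those higher in 2 numbered 2 under the upper quartile. The members' intervals cover fragments only, so 1 library per leukaemia limits every comparison. There is 1 group, so no groups could be compared or paired. Genes within a library were compared by level and ratio, with no test.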
